A study of Schizosaccharomyces pombe with 4 samples.

Results

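The 39 genes described here sit at the ends of chromosome I of the fission yeast Schizosaccharomyces pombe. They were taken by their systematic names: 22 genes with the prefixes SPAC212. and SPAC977. at the left end, without SPAC977.16c (dak2), and 17 genes with the prefixes SPAC750. and SPAC186. at the right end. The deposited tables list 5133 genes in all, of which 2325 lie on chromosome I in the ASM294v3 annotation. In that gene order the left group fills places 1 to 21 and 23 from its end, and the right group fills places 1 to 17. All 39 matched the annotation by identifier, and for all 39 the deposited coding length equals the annotated one.

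Total RNA came from log-phase cells grown at 30 °C in YEA, a rich medium, with 2 wild type (WT) libraries of strain KOR3006 and 2 Y41F libraries, of strains SPBB297 and SPBB298. Y41F names an amino acid change without its protein. From knowledge of the study it is taken as a tyrosine-to-phenylalanine change in histone H3, and gene counts do not show the substitution itself. The p-values below measure the spread between these libraries. That spread may be technical within WT, where nothing says that the cultures were separate, and within Y41F it includes any difference between the 2 strains. The library totals lay between 20845572 and 23616464 expected counts. No library was a duplicate of another of its group: a chi-square test of counts gave 43.0 per degree of freedom in WT and 63.3 in Y41F.

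Subtelomeres are the stretches between the telomere repeats and the unique body of a chromosome arm. In fission yeast the outer part carries heterochromatin and the inner part a knob-like, strongly condensed chromatin, and genes in both are known for low transcription during growth in rich medium. The outer part is built of long segments that occur in near-identical form at several chromosome ends, so that many of its genes exist in several copies. A short read from such a copy cannot always be placed, and RSEM, the program named in the submitters' processing notes, divides such reads between the copies as fractions.

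The copies differ at few bases, and the sequences that carry the differences decide to which copy a read can go. All of the sequences below are stretches of coding sequence from the RefSeq genome ASM294v3, read by gene identifier, written from 5′ to 3′ on the gene's own strand, with capitals at the bases that differ within the set. SPAC212.01c at the left end, SPAC750.06c at the right end and SPBCPT2R1.04c on chromosome II each have a coding sequence of 843 bases and differ at 3 positions. The first stretch runs from base 205 to base 265 of that coding sequence and holds 2 of the 3 positions, at which the left copy matches the one on chromosome II:
SPAC212.01c: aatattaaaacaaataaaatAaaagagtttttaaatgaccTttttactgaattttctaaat
SPAC750.06c: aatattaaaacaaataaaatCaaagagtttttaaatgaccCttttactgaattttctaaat
SPBCPT2R1.04c: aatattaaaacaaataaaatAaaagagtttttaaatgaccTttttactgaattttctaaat
The stretch from base 274 to base 314 holds the other position, at which the left copy matches the right one:
SPAC212.01c: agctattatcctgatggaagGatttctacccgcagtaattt
SPAC750.06c: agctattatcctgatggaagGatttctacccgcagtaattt
SPBCPT2R1.04c: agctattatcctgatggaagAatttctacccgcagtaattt
No base is particular to SPAC212.01c among these 3 copies.

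A methyltransferase-like gene has a copy at each end, SPAC977.03 and SPAC750.03c, and one on chromosome II, SPBC1348.04. Each has 438 coding bases, and 3 positions differ within the set. Of these, the stretch from base 37 to base 77 sets the right copy apart, and the stretch from base 263 to base 303 sets the left copy apart:
SPAC977.03, first stretch: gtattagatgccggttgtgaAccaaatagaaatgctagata
SPAC750.03c, first stretch: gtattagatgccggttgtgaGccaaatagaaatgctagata
SPBC1348.04, first stretch: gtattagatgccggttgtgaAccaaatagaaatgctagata
SPAC977.03, second stretch: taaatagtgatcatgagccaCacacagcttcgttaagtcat
SPAC750.03c, second stretch: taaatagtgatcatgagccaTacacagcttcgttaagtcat
SPBC1348.04, second stretch: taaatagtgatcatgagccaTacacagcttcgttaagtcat
Other pairs of copies matter for the comparison with Y41F. SPAC977.05c, annotated with a Vel1p domain, differs from SPBC1348.06c on chromosome II by 3 inserted bases near its start and by single bases, among them those in the first 50 bases (47 in SPBC1348.06c):
SPAC977.05c: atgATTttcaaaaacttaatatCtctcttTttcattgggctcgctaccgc
SPBC1348.06c: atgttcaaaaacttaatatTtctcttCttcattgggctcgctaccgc
The fluoride channel genes fex1, at the left end, and fex2, on chromosome II, differ at 1 of 936 coding bases, which lies in the first 26:
fex1: atgctAttaacacagtcttacttttg
fex2: atgctTttaacacagtcttacttttg

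Repeated sequence was the rule among these genes. Of the 39, 28 hold at least 1 stretch of 50 coding bases that occurs at another place in the genome, 25 hold such stretches over at least 50% of their length, and in 10 every stretch is repeated. The left end has 19 of the 28 and the right end 9. At the protein level, 18 of the 39 belong to 14 families of copies that are at least 90% identical. Of these families 13 include a gene on chromosome II, 4 have a gene at each end of chromosome I, and 3 have all of these. Whole coding sequences were identical between SPAC212.12 and SPAC750.07c, between ftm2 and ftm3, between SPAC750.02c and SPBPB2B2.16c, between ayr2 and SPBC1348.09 and between plb4 and SPBC1348.10c. In each of these pairs the deposited expected counts were equal in all 4 libraries.

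Fractional expected counts occurred in 27 of the 39 genes (69.2%), against 210 of the 5094 others (4.12%). None of the 11 genes without a repeated stretch had a fractional count, and 27 of the 28 with one did. The exception was plb4, a phospholipase gene, whose counts of 820, 889, 884 and 928 were those of its identical copy. When the copies of a family were added up, the fractions cancelled: 44 of 56 family sums were whole within 0.015, and 11 of 14 families were whole in every library. Of the single counts of the 18 copied genes, 20 of 72 were whole. The families of SPAC212.01c, SPAC212.12 and SPAC750.02c kept fractions after summing.

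Most of these genes were transcribed at low levels in WT. The deposited FPKM, which scales by coding length and depth and so allows levels of different genes to be compared, had a median over the 39 genes of 4.63 in WT, against 56.6 over all 5133 genes. Of the 39, 21 (53.8%) had a mean WT value under 5 FPKM, against 211 genes (4.11%) of the whole table. The middle gene stood at percentile 3.95 of all genes. The 39 together took between 0.115% and 0.132% of the counts of a library. In bulk RNA, fewer cells transcribing a gene and less RNA per cell cannot be told apart.

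**Figure D1:**
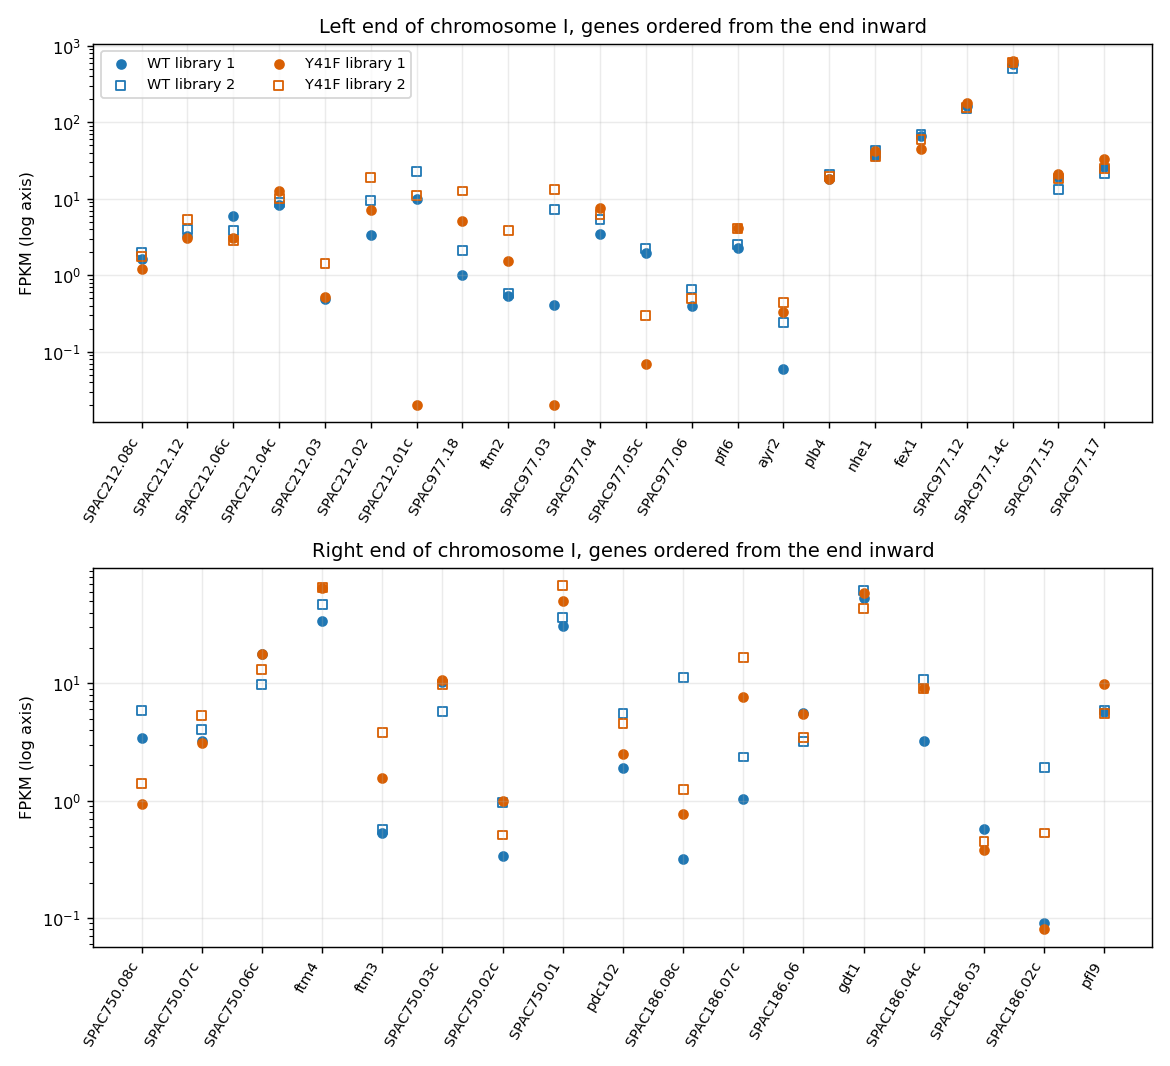
Deposited FPKM (log axis) of the 39 genes in each of the 4 libraries, with the left end above and the right end below, and genes ordered from the chromosome end inward. The 7 innermost left genes lie above 10 FPKM in every library, while 12 of the 15 outermost have a mean under 5 FPKM in WT; values of 0, which a log axis cannot show, are left out.

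The left end fell into a low outer stretch and a higher inner one, as the plot of levels by position shows. The boundary was set here after the levels were seen. The 15 outermost left genes had a median WT level of 2.38 FPKM and 12 of them were under 5, while the 7 innermost, from plb4 to SPAC977.17, had a median of 39.5 FPKM and none under 5. The right end showed no such order, with SPAC750.05c (ftm4), a transmembrane helix protein gene near the tip, at 40.3 FPKM and SPAC186.02c, near the inner edge, at 1.00. The next 25 genes inward had medians of 18.3 FPKM on the left and 17.4 on the right.

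The highest levels belonged to metabolic and transport genes of the inner left stretch. SPAC977.14c, an aldo/keto reductase, a class of enzymes that reduce carbonyl groups, reached 544 FPKM in WT, at percentile 94.2 of all genes. SPAC977.12, an L-asparaginase, which splits asparagine into aspartate and ammonia, reached 157 FPKM, at percentile 81.1. Within that stretch, fex1 followed at 67.3 FPKM and nhe1, which exchanges sodium for protons across the membrane, at 39.5 FPKM. At the right end the highest was gdt1, a member of a family of cation transporters, at 57.5 FPKM. At the bottom, ayr2, a dehydrogenase gene, stood at 0.15 FPKM, SPAC212.03 at 0.245 and SPAC186.03, an L-asparaginase with 70.0% protein identity to SPAC977.12, at 0.285. SPAC186.03 has a copy on chromosome II, SPBPB21E7.09, to which most of the family's counts were given, 383.1 against 13.9 in WT library 1.

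The series has a single comparison, Y41F against WT, and none of these genes passed it in edgeR's quasi-likelihood test with Benjamini-Hochberg adjustment over all genes. The test took in 36 of the 39. The filter on low counts removed SPAC212.03, SPAC977.06 and ayr2, which had between 0 and 0.517 CPM in each library, and ftm2, ftm3 and SPAC977.05c passed it only through the group in which they are higher. At an adjusted p under 0.05, 0 of 36 were called, with a background of 0.0197% over 5076 genes, which is the single gene yhb1. DESeq2 called 3 of the 39, against a background of 1.32%. With 1 library left out, the edgeR count was 3 of 36 without Y41F library 1 and 6 of 36 without Y41F library 2, and 0 without either WT library. Calls increased over the whole table in the same fits, to 71 of 5076 genes (1.4%) without Y41F library 1 and 197 (3.88%) without Y41F library 2. In these fits the lone sample is assumed to vary like the other group.

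At an unadjusted p under 0.05, and without the filter, 10 of 39 genes (25.6%) stood out, of which 7 were higher and 3 lower in Y41F. The background is 6.7% of 5133 genes, 4.91% higher and 1.79% lower. Since ftm2 and ftm3 have equal counts, the 10 genes give 9 distinct sets of counts. With the 14 families each summed to 1 row, 7 of 33 rows (21.2%) were under 0.05, against 6.69% of all rows. Both Y41F libraries lay above both WT libraries for 11 of 39 genes (28.2%, background 19.3%) and below them for 5 (12.8%, background 17.9%), and for the other 23 the groups overlapped.

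The fitted log2 fold changes of the 36 tested genes ran from -3.52 to 2.79, with a median of 0.18, where the median of all tested genes was -0.0042. They were above 0 for 23 genes (63.9%), against 48.7% of all genes. Without the filter, which 3 genes had passed through their higher group alone, 25 of 39 (64.1%) were above 0, against 48.8% of all genes, and 12 (30.8%) reached 2-fold in either direction, against 1.71%. With the filter, 9 of 36 (25.0%) reached 2-fold, against 1.26%. The libraries of a group also differed more at these genes than elsewhere. The median absolute log2 ratio of library 2 to library 1, on CPM + 0.5, was 0.41 in WT and 0.42 in Y41F for the 36 tested genes. For all tested genes it was 0.11 and 0.13. How much of the larger fold changes goes with that spread and with the low counts was not tested. The medians of the ends were both 0.18, the value of SPAC212.12 and SPAC750.07c, which have equal counts and sit 1 at each end. With a library left out the left median was lower, between 0.036 without WT library 2 and 0.14 without WT library 1, and the right median higher, between 0.23 without Y41F library 1 and 0.79 without WT library 2. By prefix they were -0.08 for SPAC212., 0.22 for SPAC977., 0.24 for SPAC750. and -0.05 for SPAC186. For the 11 genes without repeated stretches the median was -0.05, and for the 25 tested genes with them it was 0.18.

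**Figure D2:**
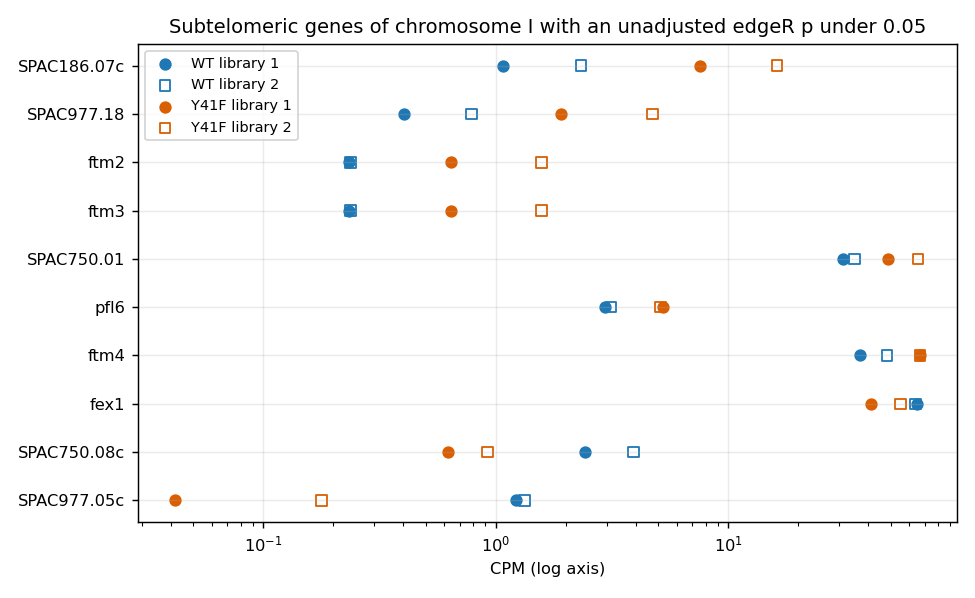
Level in CPM (log axis) of the 10 genes with an unadjusted edgeR p under 0.05, with 1 point per library. The groups do not overlap for any of the 10, which is no separate result, since the genes were picked by that p in the same libraries. None of the 10 reached an adjusted p under 0.05.

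The largest difference toward Y41F was at SPAC186.07c, a hydroxyacid dehydrogenase gene of the right end without repeated stretches. Its expected counts were whole, at 23 and 49 in WT and 180 and 375 in Y41F. In CPM, the count relative to the TMM-scaled total of its library, these are 1.08, 2.33, 7.52 and 16.2, and the lower Y41F library lies above the higher WT one. The library numbered 2 was about as far above the library numbered 1 in WT as in Y41F. The log2 fold change was 2.79 ± 0.52 (SE, n = 2 per group), with an edgeR adjusted p of 0.283 and a DESeq2 adjusted p of 8.56e-05. With a library left out it lay between 2.14, without Y41F library 2, and 3.45, without WT library 2. A long noncoding RNA annotated on the opposite strand covers 409 bases of its coding sequence. No source used here says whether strand was used in counting, so reads of the pair cannot be told apart, and 20 of the 39 genes have coding bases covered by an opposite-strand gene in this way. Its relative SPAC186.02c, with 71.1% protein identity, did not share the pattern: it had 0.0937 and 1.90 CPM in WT and 0.0835 and 0.517 in Y41F, and the groups overlapped.

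SPAC750.01 and ftm4, both of the right end, differed at much higher levels. SPAC750.01, an aldo/keto reductase with 87.5% protein identity to SPAC977.14c, had 31.1 and 34.9 CPM in WT and 48.7 and 65.4 in Y41F. Both Y41F libraries stood above both WT libraries, with a log2 fold change of 0.79 ± 0.17 (SE), an edgeR adjusted p of 0.362 and a DESeq2 adjusted p of 0.0117. Of its 50-base stretches, 36.9% are repeated elsewhere. Its expected counts were fractional in all 4 libraries, as were those of SPAC977.14c. How far its fold change depends on how reads were split was not tested. SPAC977.14c itself, about an order of magnitude higher, had 646 and 529 CPM in WT and 657 and 625 in Y41F, so that its groups overlapped, with a log2 fold change of 0.13 ± 0.13.

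For ftm4 the CPM were 36.7 and 48.0 in WT and 66.8 and 66.7 in Y41F, a log2 fold change of 0.66 ± 0.14 with an edgeR adjusted p of 0.371 and a DESeq2 adjusted p of 0.0239. It has 2 copies on chromosome II, ftm5 and SPBPB2B2.19c, whose deposited counts were equal to each other and whose log2 fold change was 0.72 ± 0.15. The 3 copies together had 92.3 and 102 CPM in WT and 145 and 169 in Y41F. This sum does not depend on how reads were split within the family, and gave a log2 fold change of 0.69 ± 0.11 and an edgeR adjusted p of 0.229 (unadjusted 8.29e-04). The single copy and the sum of its family thus gave much the same fold change.

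**Figure D3:**
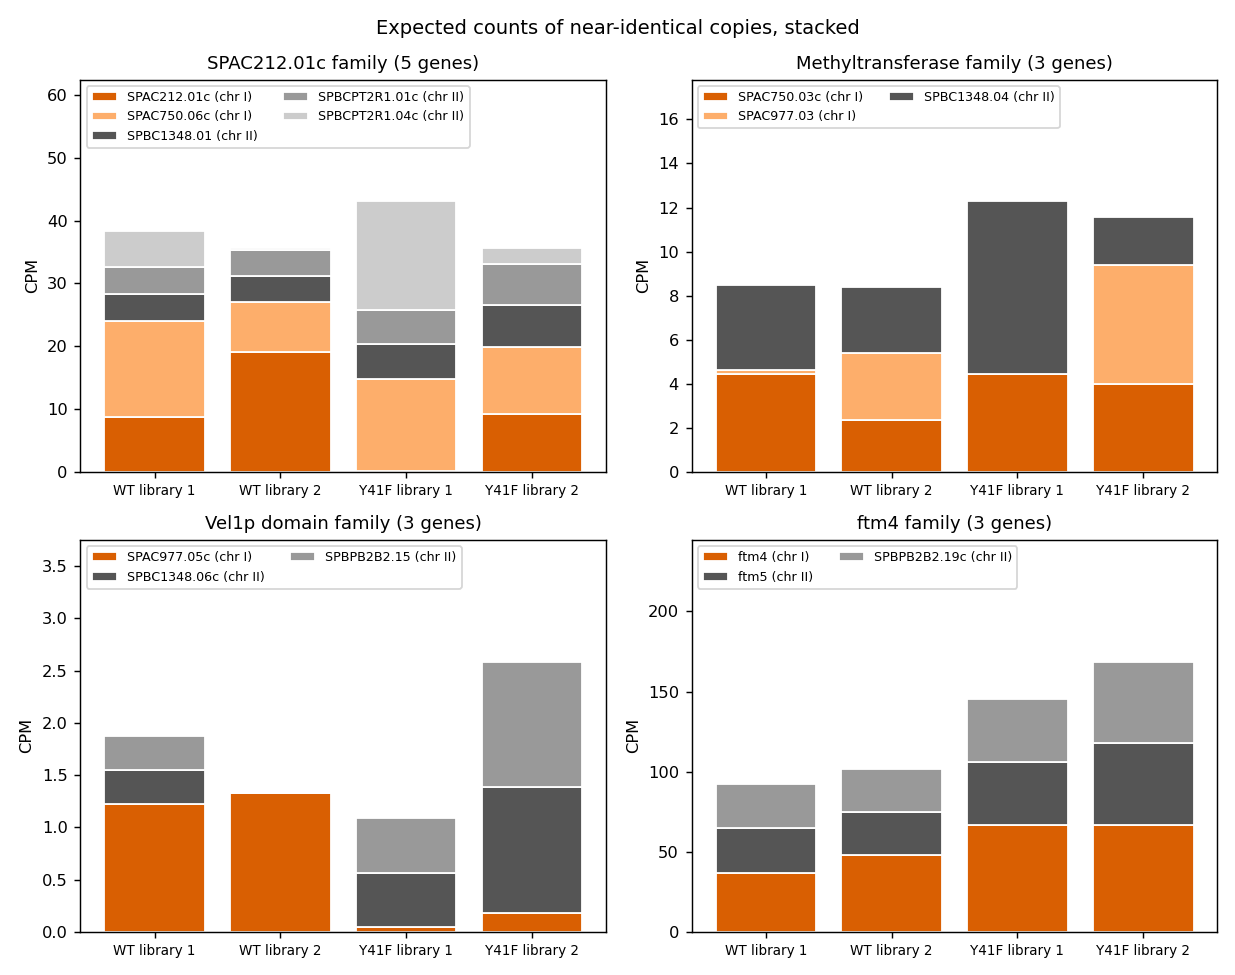
Levels in CPM of the copies in 4 families, stacked for each library, with copies on chromosome I in orange and copies on chromosome II in grey. The height of the stack for the SPAC212.01c family stays between 35.6 and 43.1 CPM while the share given to each copy moves, and the stack of the ftm4 family is higher in both Y41F libraries.

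For other copied genes the value of the single gene and the value of the family parted, as the stacked plot of copies shows. SPAC977.05c, the Vel1p domain gene, had expected counts of 26.08 and 28 in WT and 1 and 4.13 in Y41F. This gave the lowest fold change of the set, -3.52 ± 0.69 on the log2 scale (edgeR adjusted p 0.345), with no overlap between groups. It was -4.75 without Y41F library 2 and -2.84 without Y41F library 1. Its copies on chromosome II, SPBC1348.06c and SPBPB2B2.15, differed in the opposite direction, each with 6.96 and 0 expected counts in the WT libraries and with 12.5 and 27.94 in the Y41F libraries. The 3 together had 1.87 and 1.33 CPM in WT and 1.09 and 2.59 in Y41F, a log2 fold change of 0.19 ± 0.50 with groups that overlapped.

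SPAC212.01c, an uncharacterized gene, varied widely between the libraries of a group. Its expected counts were 184.43 and 400.49 in WT and 0.43 and 211.87 in Y41F, so that 1 Y41F library was near 0 while the other exceeded a WT library. The fitted log2 fold change of -1.60 ± 1.36 (edgeR adjusted p 0.864) went with 1 library: it was -11.25 without Y41F library 2. In the Y41F library where SPAC212.01c was near 0, SPBCPT2R1.04c on chromosome II had its highest count, 413.6, against 124.12, 4.8 and 60.67 in the other libraries. The right-end copy SPAC750.06c had 15.4 and 8.07 CPM in WT and 14.7 and 10.8 in Y41F, also overlapping. The sum of the 5 copies was 38.4 and 35.6 CPM in WT and 43.1 and 35.7 in Y41F, a log2 fold change of 0.09 ± 0.13. In expected counts the sum was still fractional, at 820.18 and 749.49 in WT and 1031.61 and 828.68 in Y41F. It can thus still depend on reads shared with other genes.

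Among the methyltransferase-like copies the left one also varied widely between libraries, but here the family sum lay higher in both Y41F libraries. SPAC977.03 at the left end had 3.78 and 63.58 expected counts in WT libraries 1 and 2, and in Y41F it had 0.16 and 125.45, low in both libraries numbered 1. SPAC750.03c at the right end had 4.43 and 2.37 CPM in WT and 4.43 and 3.97 in Y41F, with a log2 fold change of 0.31 ± 0.35. The family sum was steadier than either copy, at 8.48 and 8.41 CPM in WT and 12.3 and 11.6 in Y41F. Its log2 fold change was 0.50 ± 0.15, with an edgeR adjusted p of 0.547 (unadjusted 0.0158).

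At pfl6 and fex1, each with a copy that differs at 1 base, the gene and the sum also gave different values. The gene pfl6 encodes a cell surface glycoprotein of a family linked to flocculation, and had 2.95 and 3.13 CPM in WT and 5.23 and 5.10 in Y41F, with no overlap and a log2 fold change of 0.76 ± 0.22 (edgeR adjusted p 0.556). Its copy SPBC1348.08c had 2.95 and 3.14 CPM in WT and 1.74 and 2.27 in Y41F, and the sum of the pair gave 0.24 ± 0.18, with 5.90 and 6.27 CPM in WT and 6.98 and 7.37 in Y41F, still without overlap. The gene fex1 had 1373.85 and 1338.41 expected counts in WT and, with no overlap, 981.43 and 1276.34 in Y41F, a log2 fold change of -0.41 ± 0.15 (edgeR adjusted p 0.710). For fex2 the log2 fold change was 0.32 ± 0.14, and for the sum it was -0.12 ± 0.11, with 101 and 92.7 CPM in WT and 82.0 and 96.2 in Y41F. Summed, the fluoride channel pair overlapped between groups.

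Over the 18 copied genes the median absolute log2 ratio between the libraries of a group was 0.23 in WT and 0.43 in Y41F. Over the 14 family sums it was 0.14 and 0.22. Sums also hold more counts than single copies, and the part of the read split in this difference was not tested. For the 11 genes without repeated stretches the ratio was larger, at 0.72 in WT and 0.45 in Y41F. For the 25 tested genes with them it was 0.29 and 0.36.

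The remaining genes under an unadjusted p of 0.05 had few counts. SPAC977.18, uncharacterized, had 0.403 and 0.784 CPM in WT and 1.90 and 4.71 in Y41F, a log2 fold change of 2.42 ± 0.60 with an edgeR adjusted p of 0.421. It was 1.64 without Y41F library 2 and 2.95 without WT library 2. A stretch of 295 of its 402 coding bases matches SPBPB2B2.18 on chromosome II at 96.6% identity. The expected counts of SPAC977.18 were fractional in all 4 libraries, at 8.59 and 16.51 in WT and 45.5 and 109.31 in Y41F. Those of SPBPB2B2.18 were fractional as well, at 23.41 and 11.49 in WT and 30.5 and 141.69 in Y41F, also without overlap. How far the fold change of SPAC977.18 depends on how reads were split was not tested. The identical genes ftm2 and ftm3, which encode transmembrane helix proteins, each had 5 expected counts in either WT library and, in the Y41F libraries, 15.43 and 36.54, with a log2 fold change of 2.21 ± 0.70 (edgeR adjusted p 0.621). Without Y41F library 2 it was 1.39, and without Y41F library 1 it was 2.74. The sum of their family of 4 had 0.703 and 0.950 CPM in WT and 1.50 and 5.90 in Y41F, a log2 fold change of 2.15 ± 0.71 (edgeR adjusted p 0.637).

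SPAC750.08c, the outermost right gene, was lower in Y41F, with 2.42 and 3.91 CPM in WT and 0.626 and 0.921 in Y41F and no overlap. Its log2 fold change was -2.04 ± 0.42, with an edgeR adjusted p of 0.362. It is annotated as a malic enzyme, which converts malate to pyruvate, and all 687 bases of its coding sequence align to mae2 on chromosome III at 88.9% identity. The gene mae2, chosen here after its values were seen, had 46694.33 and 56224.75 expected counts in WT and 43961.02 and 48442.63 in Y41F. Its log2 fold change was -0.31 ± 0.14. Every 50-base stretch of SPAC750.08c is repeated in the genome, and its expected counts were fractional in all 4 libraries, at 51.67 and 82.25 in WT and 14.98 and 21.37 in Y41F. Added to those of mae2 they gave whole numbers in all 4, so some reads were divided between these genes. How far its low counts and its fold change depend on that split was not tested. The places at which its 50-base stretches recur were not determined.

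Of the 7 genes of the inner left stretch, fex1 was the only one whose groups did not overlap, and summed with fex2 they did. Over all genes, without the filter, the groups did not overlap for 19.3% higher and 17.9% lower in Y41F, so 1 of 7 does not stand out. The other 6 genes of the stretch had unadjusted p-values over 0.05. For plb4 the log2 fold change was -0.07 ± 0.11, with 38.4 and 42.2 CPM in WT and 36.9 and 40.0 in Y41F. For nhe1 it was -0.07 ± 0.13, with 53.2 and 60.9 CPM in WT and 59.7 and 49.4 in Y41F. For SPAC977.12 it was 0.05 ± 0.11, with 182 and 161 CPM in WT and 190 and 165 in Y41F. In all 3 genes the groups overlapped. SPAC977.15, of the dienelactone hydrolase family, had 14.9 and 9.55 CPM in WT and 15.2 and 13.3 in Y41F. SPAC977.17, of the family of water and solute channels, had 49.5 and 39.1 CPM in WT and 58.9 and 45.0 in Y41F. Their log2 fold changes were 0.22 ± 0.24 and 0.23 ± 0.18, again with overlap.

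Of the 4 name groups, counting tested genes, the SPAC186. genes had the largest median difference between the libraries of a group. The values were 1.20 on the log2 scale in WT and 0.55 in Y41F. Of these 9 genes only SPAC186.03 has repeated stretches. SPAC186.08c, an L-lactate dehydrogenase, had 0.328 and 10.9 CPM in WT and 0.752 and 1.21 in Y41F. Its log2 fold change of -2.52 ± 1.33 (edgeR adjusted p 0.797) rests on WT library 2, and without that library it was 1.56. The pyruvate decarboxylase gene pdc102 had 3.47 and 9.59 CPM in WT and 4.26 and 7.72 in Y41F, higher in both libraries numbered 2, with a log2 fold change of -0.13 ± 0.53. The glycoprotein gene pfl9 had 5.86 and 5.75 CPM in WT and 9.56 and 5.30 in Y41F, and gdt1 had 43.6 and 47.6 in WT and 45.5 and 33.2 in Y41F. In these 4 genes the groups overlapped.

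Among the uncharacterized genes, SPAC212.04c had 7.54 and 7.67 CPM in WT and 10.6 and 8.59 in Y41F, without overlap, and a log2 fold change of 0.33 ± 0.19 (edgeR adjusted p 0.797). The remaining 10 tested genes had log2 fold changes between -0.76 and 1.00, all with an unadjusted edgeR p over 0.05. They are SPAC212.08c and SPAC212.12, which encode GPI-anchored proteins, SPAC750.07c, whose coding sequence is that of SPAC212.12, the transporter gene SPAC750.02c and SPAC977.04, which is identical to a part of it, the isomerase gene SPAC186.06, the asparaginase gene SPAC186.03 and the uncharacterized SPAC186.04c. At the lower end of the range was SPAC212.06c, a short relative of the subtelomeric helicase gene tlh2, and at the upper end SPAC212.02, also uncharacterized. Of these 10, SPAC212.06c and SPAC212.08c were lower and SPAC977.04 higher in both Y41F libraries than in both WT libraries. The others overlapped. The SPAC212.02 coding sequence shares 357 identical bases with SPBCPT2R1.02 on chromosome II. SPAC212.02 had 29 and 77 expected counts in WT and 66.18 and 169.12 in Y41F, so its groups overlapped, while SPBCPT2R1.02 had 0 in both WT libraries and 75.82 and 84.88 in Y41F. The sums of the pair, formed after these values were seen, were whole, at 29 and 77 in WT and 142 and 254 in Y41F, and they did not overlap.

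**Figure D4:**
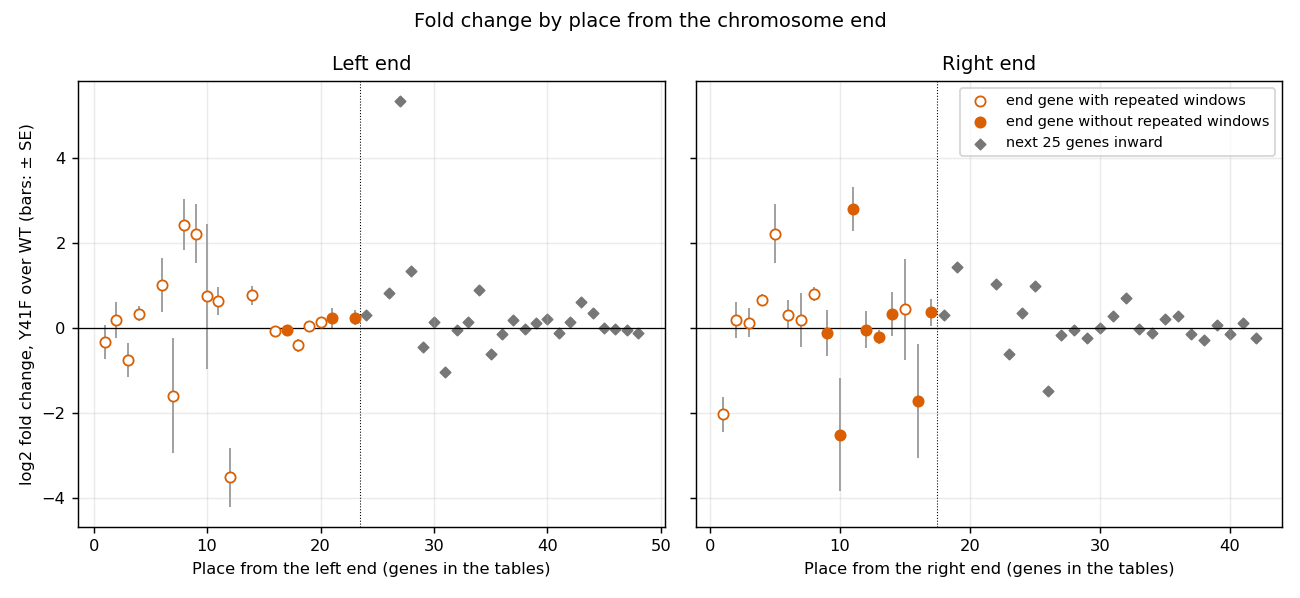
Log2 fold change of Y41F over WT against place from the chromosome end for the tested end genes (circles, filled where no 50-base stretch is repeated, bars ± SE) and for the next 25 genes inward (grey diamonds), with a dotted line between them. The 36 end genes lie between -3.52 and 2.79, and the innermost 7 left genes between -0.41 and 0.23. The inward neighbours lie between -1.05 and 5.32 on the left and between -1.50 and 1.42 on the right.

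The spread of the fold changes by position is shown in the plot by place. On the left, the 12 tested genes of the outer stretch ranged from -3.52 to 2.42 and the 7 inner ones from -0.41 to 0.23, and the stretches differ in level as well. The part of level and repeats in that spread was not tested. The right end had no such order, since the 8 outer SPAC750. genes ranged from -2.04 to 2.21 and the 9 inner SPAC186. genes from -2.52 to 2.79. Among the next 25 genes inward, 24 on the left and 23 on the right were tested. Their median log2 fold changes were 0.11 and -0.01, with 5 and 2 genes at an unadjusted p under 0.05. The 1 called in edgeR among them is yhb1, a nitric oxide dioxygenase gene at place 19 from the right end, at an adjusted p of 0.0215. Several of the 48 genes with subtelomeric prefixes of chromosome II are copies of those described here. Of the 48, 42 were tested, with a median log2 fold change of 0.52 and 0 called. Of the 42, 10 (23.8%) had an unadjusted edgeR p under 0.05 and 19.0% reached 2-fold. Among the 36 tested end genes of chromosome I the shares were 27.8% and 25.0%.

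Genes for proteins that act at telomeres or on chromatin were followed as a further list. Among them are taz1, rap1 and pot1, which bind telomeres, and swi6 and clr4, which make heterochromatin. All 20 were tested, with log2 fold changes between -0.16 and 0.17 and a median of 0.02. None was called in edgeR and 0 had an unadjusted p under 0.05.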

How the data were processed

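The deposited tables, 1 per library, hold expected counts, FPKM values and coding lengths of genes, per the file headers. RSEM, Bowtie, BWA and the build ASM294v2 are listed in the submitters' processing notes, and the sources used here give no versions or strand. A gene absent from a table was taken as a count of 0. Names, gene order and sequences came from ASM294v3 by identifier, so no coordinates are given. The genes and lists were chosen with earlier results of these data known.

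Expected counts of all genes were rounded and fitted in edgeR 4.0.16 (R 4.3.3; glmQLFit and glmQLFTest), with TMM scaling and filterByExpr (57 genes removed, 5076 tested), with Benjamini-Hochberg adjustment. SE is the fold change over the root of its F statistic. The procedure was tested on simulated data. The simulated counts were drawn gene by gene, so the simulation does not cover reads shared between copies. Values per library are given for genes averaging 5 CPM or more, with an unadjusted p under 0.05, or a 2-fold change at 1 CPM or more, and for the relatives and copies that results turn on. Families joined proteins at least 90% identical. Other settings were DESeq2 1.42.0, limma 3.58.1 on deposited FPKM, other filters and scaling, summed families, a replicate block and leaving out libraries. Sequence matches used BLAST 2.17.0.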

Additional observations from a re-analysis of the deposited data

How the results depend on the processing

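The count of called genes was 0 in edgeR and 3 with DESeq2 (SPAC186.07c, SPAC750.01 and ftm4), and 0 to 6 with a library left out, where the whole table gave 1 call in edgeR, 68 with DESeq2 and 0 to 197 with a library left out. Requiring at least 10 CPM in 2 libraries left 11 genes tested. The count at an unadjusted p under 0.05 then went from 10 of 36 to 3 of 11, against 6.7% and 6.6% of all genes tested. That of fold changes above 0 went from 23 to 7, with little change in share, from 63.9% to 63.6%. The right-end median of 0.18 ran from 0.23 to 0.79 with a library left out, highest without WT library 2.

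With the replicate number as a block, 5 genes were called (SPAC186.07c, SPAC750.01, ftm4, SPAC750.08c and SPAC977.18), and 87 genes in the whole table against 1. Deviations from the group means correlated between same-numbered libraries at 0.45 over all tested genes and 0.48 over the 36 tested genes of this set. With 2 pairs and no label that pairs them, the numbers were not taken as pairs.

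Of 264 values of 23 single genes under other settings, 230 kept their direction and side of the threshold, 17 passed it and 17 changed sign. With copies summed the sign changed for SPAC212.01c (0.090), SPAC977.05c (0.19) and SPAC977.12 (-0.048). On log2(FPKM + 1) it changed for pdc102 (0.0045). With a library left out, the log2 fold change ran from -0.12 to 0.72 for pfl9, from -3.47 to 1.56 for SPAC186.08c, from -0.68 to 0.79 for pdc102 (0.25 without Y41F library 1), from -0.27 to 0.66 for SPAC750.06c (-0.11 without Y41F library 1), from -0.13 to 0.0014 for plb4, from -0.20 to 0.065 for nhe1 (0.036 without WT library 2), from -0.051 to 0.14 for SPAC977.12 (-0.040 without WT library 2), from -0.011 to 0.28 for SPAC977.14c and from -0.065 to 0.58 for SPAC977.15. For SPAC212.01c it ran from -11.25 to -0.59, and the lowest is a fit on a count near 0. The cause of these changes was not tested.

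Depth limits most of these genes. Of the 39, 23 had a mean under 5 CPM and 4 were under 1 CPM in every library. Intervals were not computed for fractional counts.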
